A study of Mus musculus with 14 samples.

Results

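Gm-numbered loci are mouse genes that carry a provisional number in place of a functional name. The 265 loci described here are the rows of the deposited FPKM tables (fragments scaled by transcript length and by the fragments of the library) whose single name is Gm followed by digits. The NCBI gene type in the authors' matrix was neither protein-coding nor ncRNA, and the FPKM was at least 0.1 in at least 3 of 14 libraries. They are 265 of 67811 rows and carry 252 names, since 13 names stand on a pair of rows that share a range. Whole heads with brains were taken from C57BL/6J embryos at E12.5. There were 5 wild-type libraries (Zcchc8+/+, WT), 3 heterozygous libraries (Zcchc8+/-, HET) and 6 knockout libraries (Zcchc8-/-, KO), with no treatment in any group. The labels do not say how the mutant allele was made, and do not say whether each library is a separate embryo. The p-values therefore cover the spread between libraries, which may be partly technical. Libraries were made from polyadenylated RNA by a stranded protocol. The NCBI type was blank for 223 members, unknown for 29 and pseudo for 13. In the GENCODE M21 annotation, matched by name for 264 members, the types were lincRNA (70), snoRNA (52), misc_RNA (36), protein_coding (35), snRNA (21), miRNA (15), processed_pseudogene (12), pseudogene (9), scaRNA (5), rRNA (3), antisense (3) and 1 each of 3 others. The label "predicted non-coding" thus did not hold for the 35 members that GENCODE types as protein-coding.

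ZCCHC8 holds together the nuclear exosome targeting (NEXT) complex, which it forms with the RNA-binding protein RBM7 and the helicase MTREX (Skiv2l2). The complex hands short, unspliced or unprocessed nuclear transcripts to the RNA exosome, a nuclease that degrades or trims them from the 3′ end. Small nucleolar RNAs (snoRNAs) guide the modification of ribosomal RNA, and in mice most are cut out of introns of host genes. Box H/ACA snoRNAs guide pseudouridylation and end in an ACA motif a few bases before the 3′ end, while box C/D snoRNAs guide 2′-O-methylation. Small nuclear RNAs (snRNAs) such as U1 and U2 build the spliceosome, and U3 is a nucleolar RNA of ribosomal RNA processing. Mature forms of these RNAs lack a poly(A) tail, so the values cover polyadenylated RNA only, not all RNA from these genes.

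The sequences below are the annotated transcripts of 10 intronic snoRNA members called higher in KO, those that the rule for named loci takes, shown because most share an end motif that the choice of members did not use. Capitals mark an ACA triplet that stands 3 bases before the 3′ end. Gm22884 has no ACA at that place.
Gm26493: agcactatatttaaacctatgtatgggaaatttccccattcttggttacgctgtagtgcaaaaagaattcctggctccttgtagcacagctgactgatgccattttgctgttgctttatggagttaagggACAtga
Gm25394: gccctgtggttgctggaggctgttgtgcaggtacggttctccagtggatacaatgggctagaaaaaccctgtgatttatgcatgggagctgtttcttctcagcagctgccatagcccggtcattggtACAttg
Gm22270: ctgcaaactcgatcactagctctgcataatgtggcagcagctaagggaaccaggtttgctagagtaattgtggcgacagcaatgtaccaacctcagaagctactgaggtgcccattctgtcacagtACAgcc
Gm26387: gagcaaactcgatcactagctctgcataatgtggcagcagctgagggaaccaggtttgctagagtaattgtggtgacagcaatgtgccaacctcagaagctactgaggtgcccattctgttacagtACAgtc
Gm25848: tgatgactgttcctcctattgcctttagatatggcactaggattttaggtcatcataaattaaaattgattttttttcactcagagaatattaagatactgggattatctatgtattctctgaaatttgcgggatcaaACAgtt
Gm22884: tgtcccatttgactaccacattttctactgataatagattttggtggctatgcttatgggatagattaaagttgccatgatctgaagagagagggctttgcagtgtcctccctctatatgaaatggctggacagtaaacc
Gm23442: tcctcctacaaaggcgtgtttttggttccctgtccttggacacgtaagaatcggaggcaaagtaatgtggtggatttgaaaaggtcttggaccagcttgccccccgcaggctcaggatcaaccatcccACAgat
Gm22748: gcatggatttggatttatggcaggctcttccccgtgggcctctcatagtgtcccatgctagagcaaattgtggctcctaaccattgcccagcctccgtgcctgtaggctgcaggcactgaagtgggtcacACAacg
Gm25636: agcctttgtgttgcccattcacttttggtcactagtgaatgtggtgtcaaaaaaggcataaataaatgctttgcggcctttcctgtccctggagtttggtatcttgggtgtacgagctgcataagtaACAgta
Gm22786: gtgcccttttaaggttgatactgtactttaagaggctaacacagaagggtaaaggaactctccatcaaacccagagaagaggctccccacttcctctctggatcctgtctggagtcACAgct

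The next sequences are those of members that are near-copies of known small RNAs and were higher in KO. Capitals mark bases that differ from the annotated U2 RNA Rnu2-10 (Gm23444 and Gm25360), the U1 RNA Rnu1b1 (Gm22614) or the U3 RNA Rnu3b1 (Gm24949). Positions count from 1 at the 5′ end, with the base of the known RNA first. Gm23444 differed from Rnu2-10 by G109C alone, Gm25360 by C78T, A95G, G109C and C154T, and Gm22614 from Rnu1b1 by T33C alone. Gm24949 differed from Rnu3b1 at 9 of 215 bases.
Gm23444: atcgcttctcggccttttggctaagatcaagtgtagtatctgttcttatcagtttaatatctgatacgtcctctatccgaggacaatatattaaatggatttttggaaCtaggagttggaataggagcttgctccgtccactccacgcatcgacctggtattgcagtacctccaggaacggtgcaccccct
Gm25360: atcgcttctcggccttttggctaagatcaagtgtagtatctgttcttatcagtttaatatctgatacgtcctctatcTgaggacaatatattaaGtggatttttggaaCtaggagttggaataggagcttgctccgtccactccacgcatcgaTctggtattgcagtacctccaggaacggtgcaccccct
Gm22614: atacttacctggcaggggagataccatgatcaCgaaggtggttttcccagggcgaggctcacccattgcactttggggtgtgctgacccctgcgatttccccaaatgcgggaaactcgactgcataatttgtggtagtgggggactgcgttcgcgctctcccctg
Gm24949: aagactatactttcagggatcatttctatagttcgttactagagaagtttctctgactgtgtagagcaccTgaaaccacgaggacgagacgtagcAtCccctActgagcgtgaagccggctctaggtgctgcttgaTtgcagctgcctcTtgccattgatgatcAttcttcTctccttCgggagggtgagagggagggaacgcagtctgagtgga

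Zcchc8 RNA was lower in the libraries labelled KO. FPKM was 40.8, 38.1, 40.8, 36.6 and 42.3 in WT1 to WT5, 26.0, 24.0 and 27.2 in the HET libraries, and 9.27, 14.4, 15.1, 15.1, 20.6 and 18.7 in KO1 to KO6, in that order. The 3 genotypes did not overlap. KO minus WT was -1.39 on the log2 scale (SE 0.15, limma-trend adjusted p = 2.1e-06). Among all loci, 20109 to 20543 had an FPKM of at least 0.1 in WT and 22666 to 25272 in KO, and relative depth, read from the lowest FPKM steps, was 1 to 1.21 in WT, 1.22 to 1.31 in HET and 1.16 to 1.51 in KO. The part of this gap in depth in the results was not tested. HET4 stood apart through 1 locus of 1124050 FPKM.

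Most members sat inside ranges far longer than the RNA they are named for. The coordinate range of a row ran from 126 to 1573570 bases with a median of 49001, and 238 of the 265 ranges were shared with other rows, up to 48 rows in 1 range. By range, 12 members were under 400 bases and 253 were longer. By the annotated gene, 140 were under 400 bases (median 142) and 124 were longer (median 2868), so 128 short genes stood in long ranges. The row of Gm23444, for example, covered 1016 bases (chr11:83271498-83272513) while its annotated gene has 191 (chr11:83271498-83271688). Rows alone in a range of 110 to 160 bases had no value between 0 and 0.769 FPKM (2194 rows), whereas 19 of the 31 small RNA members called higher in KO had values above 0 and below that. The called small RNA members include shorter and longer genes, such as Gm27901 (61 bases) and Gm22803 (283 bases), so 0.769 is not the floor for all of them. Gm25360 had a value below 0.769 though its range is its gene of 191 bases. Of 15 called snoRNA members, 4 had values below 0.769 and 11 did not. A gene of 110 to 160 bases with such values steps more finely than fragments on it alone would, so its row need not measure the small RNA alone. Fragments of host introns, overlapping genes and near-identical copies cannot be told apart in these values.

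More members were detected in KO than in WT libraries. At least 0.1 FPKM was reached by 130 to 147 members in WT libraries, 118 to 139 in HET and 160 to 221 in KO, with KO1 the lowest and KO6 the highest KO library. The KO and WT ranges did not overlap. Nor did they over all loci, where 20109 to 20543 reached that level in WT and 22666 to 25272 in KO. Because the membership rule used the values of the members, the member counts are a description. WT libraries alone would have chosen 131 members, HET libraries 82 and KO libraries 210. Members chosen by KO and not by WT numbered 90, and those chosen by WT and not by KO numbered 11. A larger group meets a rule of 3 libraries more easily, and for HET every library had to pass. The counts are therefore not like for like between genotypes, and the part of group size in them was not tested.

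**Figure D1:**
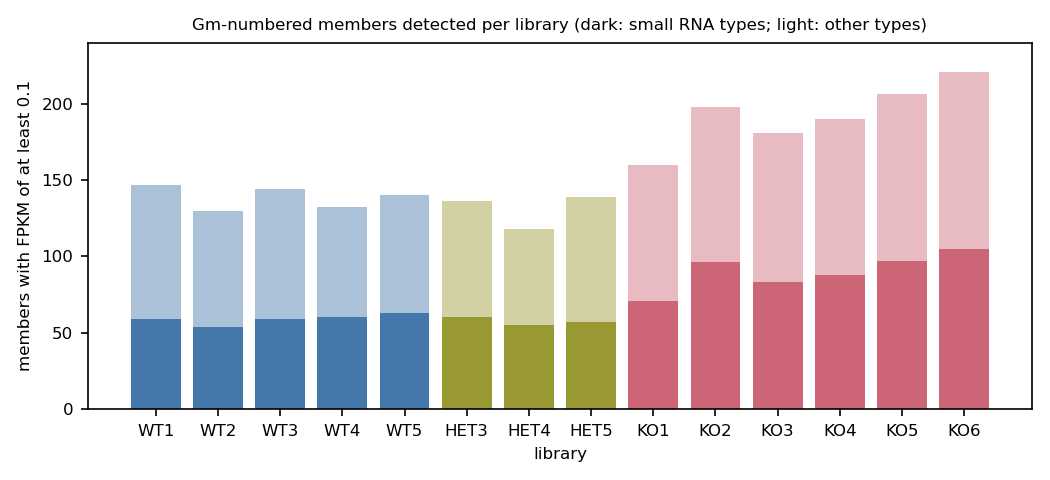
Number of members with an FPKM of at least 0.1 (vertical axis) in each of the 14 libraries (horizontal axis), small RNA types in dark and other types in light colour. Small RNA members numbered 54 to 63 in WT, 55 to 60 in HET and 71 to 105 in KO.

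The comparison of KO with WT heads asks which members change in RNA level without intact Zcchc8. Of the members, 118 passed the filter of at least 0.5 FPKM in at least 3 libraries, and 147 did not. Of the 118, 45 were higher and 0 lower in KO at a limma-trend adjusted p under 0.05, against 19.0% of all 18217 tested loci higher and 5.61% lower. At an unadjusted p under 0.05, 54 were higher and 2 lower, 56 in all, where 34.5% of all tested loci passed either way. The median log2 difference was 0.92 over the tested members and -0.00 over all tested loci. In 29 of the 118 tested members, all of them called, every KO library lay above every WT library, which 15.3% of all tested loci did, and 0 members lay below (1.99% of all tested loci). The filter weighs on these counts. Of the tested members, 66 did not meet it in the WT libraries alone, and 36 of those were called. Of the 52 that did, 9 were called, a share near the 19.0% of all tested loci. The same split was not made over all tested loci, and the part of the filter in the excess of calls was not tested. With all 265 members tested, 69 were higher and 0 lower (19.9% and 4.19% of all loci at that filter). After quantile normalization, 30 of the 118 were higher and 23 lower, where 12.8% of all tested loci were higher and 20.9% lower. The authors' matrix gave 34 higher and 2 lower of 86 testable members, near the 40.7% higher and 1.57% lower over all loci in that fit.

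By range length, 1 of 8 tested members under 400 bases was higher, and 44 of 110 longer ones. Over all loci, 24.9% of 438 tested rows under 400 bases and 18.9% of longer rows were higher. By annotated length the counts were 32 of 82 for genes under 400 bases, with a median log2 difference of 1.70, and 13 of 36 for longer genes, with a median of 0.30. The split by range thus placed most short RNAs among the long loci.

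The 45 calls fell on 31 small RNA members, 8 long non-coding, 4 protein-coding and 2 pseudogene members. By GENCODE type, 15 of 34 tested snoRNAs were higher (median log2 difference 3.26), 5 of 17 snRNAs (0.62), 5 of 11 misc_RNAs (2.04), 2 of 8 miRNAs (0.55), 2 of 5 scaRNAs (0.49), 2 of 3 rRNAs (1.89), 7 of 17 lincRNAs (0.19), 1 of 2 antisense RNAs, 4 of 11 protein-coding genes (0.67), 2 of 4 pseudogenes and 0 of 6 processed pseudogenes (-0.09). No type had a lower call. Over all tested loci 19.0% were higher, and whether any type differed from that share was not tested. In the quantile-normalized fit 3 of 17 lincRNAs were higher (12.8% of all tested loci). With the filter at 0.1 FPKM it was 15 of 70 lincRNAs, near the 19.9% of all loci at that filter. The median spread within a genotype was 2.23 (SD, log2) for tested snoRNA members, 1.57 for all small RNA members, 0.41 for the other members and 0.17 for all tested loci.

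**Figure D2:**
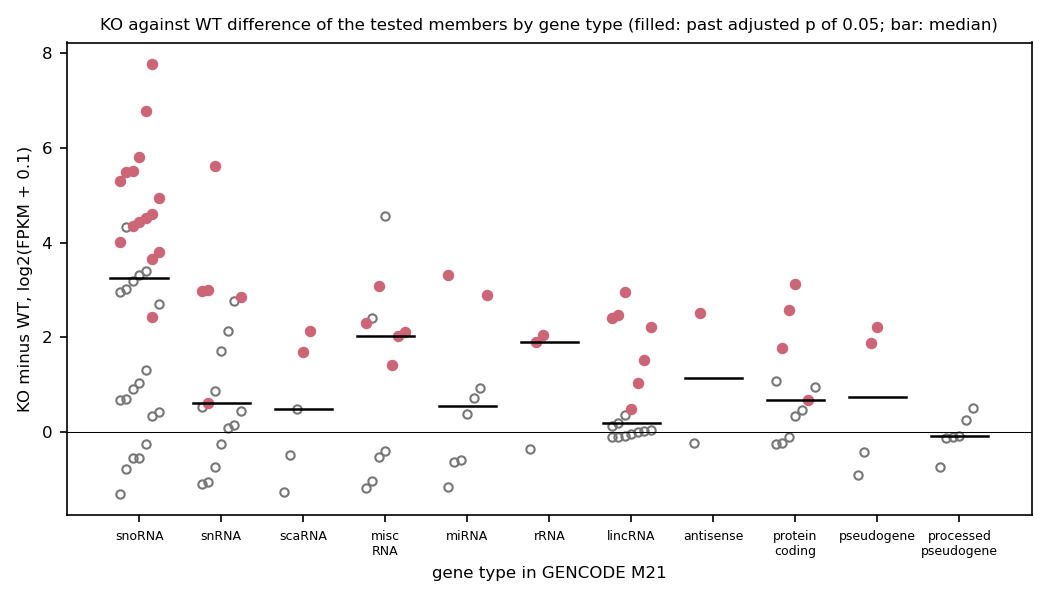
Difference between KO and WT in log2(FPKM + 0.1) (vertical axis) for tested members, 1 point a member, by GENCODE M21 gene type (horizontal axis), filled where the limma-trend adjusted p was under 0.05, with the median as a bar. All 45 filled points lie above 0, and 15 of them are snoRNAs. Points of members listed at 0 in every WT library depend on the 0.1 that was added.

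Among the called members, intronic snoRNAs had the highest levels in KO, with KO means of up to 74.4 FPKM against up to 24.3 in the other called members. Gm26493 lies in an intron of Cnot1, the scaffold gene of the CCR4-NOT deadenylase (chr8:95746060-95746195, minus strand). It was listed at 0 in all 5 WT libraries, in HET3 and in HET5, and had 8.86 FPKM in HET4. KO libraries had 11.4 at the lowest, 18.9 at the median and 46.9 at the highest (24.7 ± 14, SD, n = 6). All KO libraries lay above every WT and HET library (limma-trend adjusted p = 3.8e-05 for KO against WT).

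Gm25394 lies in an intron of Iars, which encodes the cytosolic isoleucyl-tRNA synthetase (chr13:49684301-49684433). It was listed at 0 in all WT libraries, had 6.94, 3.60 and 0 FPKM in HET3, HET4 and HET5, and had 0, 25.8 and 40.9 as the lowest, median and highest KO values (limma-trend adjusted p = 0.0068). The value of 0 was that of KO1, so the groups overlapped there alone. Gm25848, in an intron of the F-box protein gene Fbxo45 (chr16:32243712-32243855, minus strand), was listed at 0 in all WT, all HET and KO1, and had 4.61 to 7.13 FPKM in the other 5 KO libraries (limma-trend adjusted p = 7.1e-04).

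Rpl5, a ribosomal protein gene, holds a pair of members that are 94.7% identical. Gm22270 (chr5:107905177-107905308) had 5.44, 0, 16.8, 11 and 0 FPKM in WT1 to WT5, 18.6, 0 and 22.4 in HET, and 53.8, 73.3 and 110 as the lowest, median and highest KO values. No WT or HET library reached the KO range. The difference was 5.5 log2 (SE 1.76, limma-trend adjusted p = 0.0403), and the adjusted p was 0.103 without WT2, 0.0957 without WT5, and 0.0566 to 0.0714 without any 1 KO library. The WT libraries above 0 were the 3 read as male from Xist and Y-linked RNA, and with sex as a covariate the adjusted p was 0.0112. Gm26387 (chr5:107907345-107907476) was listed at 0 in all WT libraries, HET4, HET5 and KO1, had 11.1 FPKM in HET3, and had 4.82 to 13.5 in KO2 to KO6 (limma-trend adjusted p = 0.0145). No source used here says how fragments were shared between such near-copies.

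Gm22786, in an intron of the proteasome subunit gene Psmd1 (chr1:86087301-86087422), was above 0 in every library. It is 88.2% identical to Snora26 where aligned. WT libraries had 0.0517, 0.103, 0.0583, 0.0571 and 0.0524 FPKM, HET libraries 0.00656, 0.0422 and 0.119, and KO libraries 1.21, 2.15 and 5.97 at the lowest, median and highest. No KO library came near a WT or HET value, and the log2 difference was 4.02 (SE 0.37, limma-trend adjusted p = 3.9e-07). Gm25636, in an intron of the nuclear import receptor gene Ipo7 (chr7:110023210-110023342), had 0 to 0.0935 FPKM in WT, 1.21, 3.43 and 10.04 in KO at the lowest, median and highest, and 0.0399, 0.0160 and 3.00 in HET. KO lay above all WT libraries, but HET5 fell within the KO range (log2 difference from WT 4.53, SE 0.83, limma-trend adjusted p = 8.1e-04). Both Gm22786 and Gm25636 had values above 0 and below 0.769 FPKM. Their ranges had 236989 bases against 122 in the gene and 152827 against 133, so neither row need measure the snoRNA alone.

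The other 3 of the large snoRNA rises rested on less even values. Gm23442, in the Prrc2a intron, was listed at 0 in 4 WT libraries and had 14.4 FPKM in WT4, with 9.16 to 22.9 in KO and 0, 0 and 8.42 in HET. WT4 lay within the KO range, and the log2 difference was 5.80 (SE 1.5, limma-trend adjusted p = 0.0128). Gm22884, in an intron of the stress granule protein gene G3bp1, had 2.58 FPKM in WT2 alone among WT and HET libraries, 0 in KO1, 72.9 in KO5 and 10.4 to 15.1 in the other KO libraries (5.30, SE 1.48, limma-trend adjusted p = 0.0196, and 0.0505 without WT3). Gm22748, in an intron of the ornithine decarboxylase gene Odc1, had 4.07, 0, 0, 0 and 4.54 FPKM in WT, 0, 0 and 2.46 in HET, and 3.80 to 27.6 in KO (4.61, SE 1.33, limma-trend adjusted p = 0.0239). Its adjusted p was 0.0668 without WT2, 0.0658 without WT3 and 0.0656 without WT4.

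**Figure D3:**
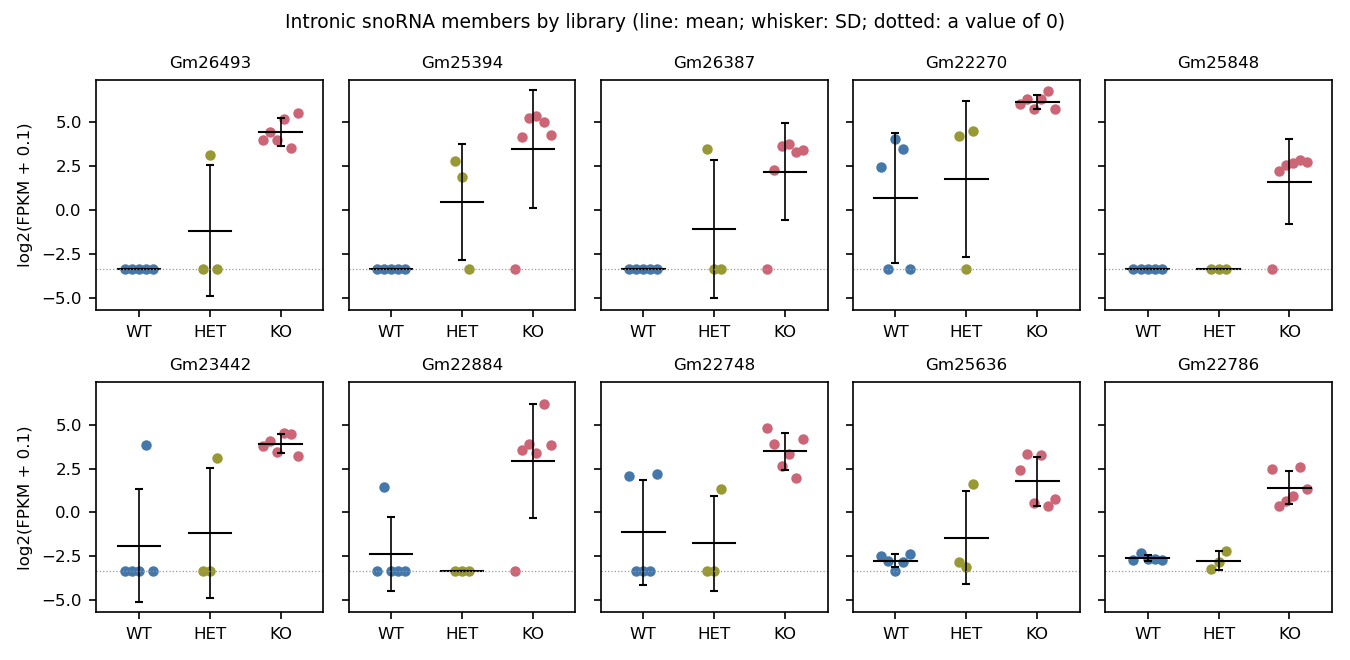
Log2(FPKM + 0.1) (vertical axis) of 10 intronic snoRNA members in each WT, HET and KO library (points), with the mean and SD of each genotype and the value of 0 FPKM as a dotted line. WT points lie mostly on that line, and KO1 lies on it for Gm25394, Gm26387, Gm25848 and Gm22884.

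The summed FPKM of the 52 snoRNA members was 41.2 to 205 in WT, 69.0 to 190 in HET and 368 to 518 in KO, without overlap between KO and the rest. The membership rule used these values, and 90 members of all types met it by KO and not by WT libraries. The sums are therefore a description. KO1 was listed at 0 for 4 of the 15 called snoRNA members, KO3 for 1 and the other KO libraries for 0, while WT libraries were listed at 0 for 8 to 11. The median difference of the 45 called members from the WT mean was 1.91 log2 in KO1 and 2.72 to 3.10 in the other KO libraries. Called members were chosen for their difference between KO and WT, so these values only describe how single libraries stand. Without KO1 and KO3, 46 members were higher and 0 lower, among them 40 of the 45. KO1 also had the lowest Zcchc8 value of all libraries.

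None of the genes that hold a called snoRNA member passed the test. In GENCODE, 38 of the 52 snoRNA members and 29 of the 34 tested ones lie in introns of a gene on the same strand. The 13 called members with a host lie in Cnot1, Iars, Rpl5, Fbxo45, G3bp1, Prrc2a, Odc1, Ipo7, Sec24a (Gm25291), Gtf2a1 (Gm25776), Rpsa (Gm26448) and Psmd1, which are 12 genes. Host values are those of the row that carries the host name. Several such rows carry further names, as Rpl5 with Snord21, Psmd1 with Armc9, Rpsa with Gm24044, Ranbp1 with Dgcr8 and Cct6a with Snora15. By limma-trend, 0 of the 12 hosts had an adjusted p under 0.05, where 19.0% of all tested loci were higher and 5.61% lower. Whether the hosts differ from those shares was not tested. The log2 differences of the 12 hosts ran from 0.01 to 0.15. Cnot1 had 49.3 ± 2.33 FPKM in WT (SD, n = 5) and 51.0 ± 2.91 in KO (SD, n = 6), with a log2 difference of 0.05 (limma-trend adjusted p = 0.515). Rpl5 had 691 ± 42.1 and 712 ± 25 FPKM (0.05, adjusted p = 0.513). Over the 25 hosts of all 29 tested members, 2 were higher (Ranbp1 and Cct6a) and 0 lower, with log2 differences from -0.12 to 0.35.

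**Figure D4:**
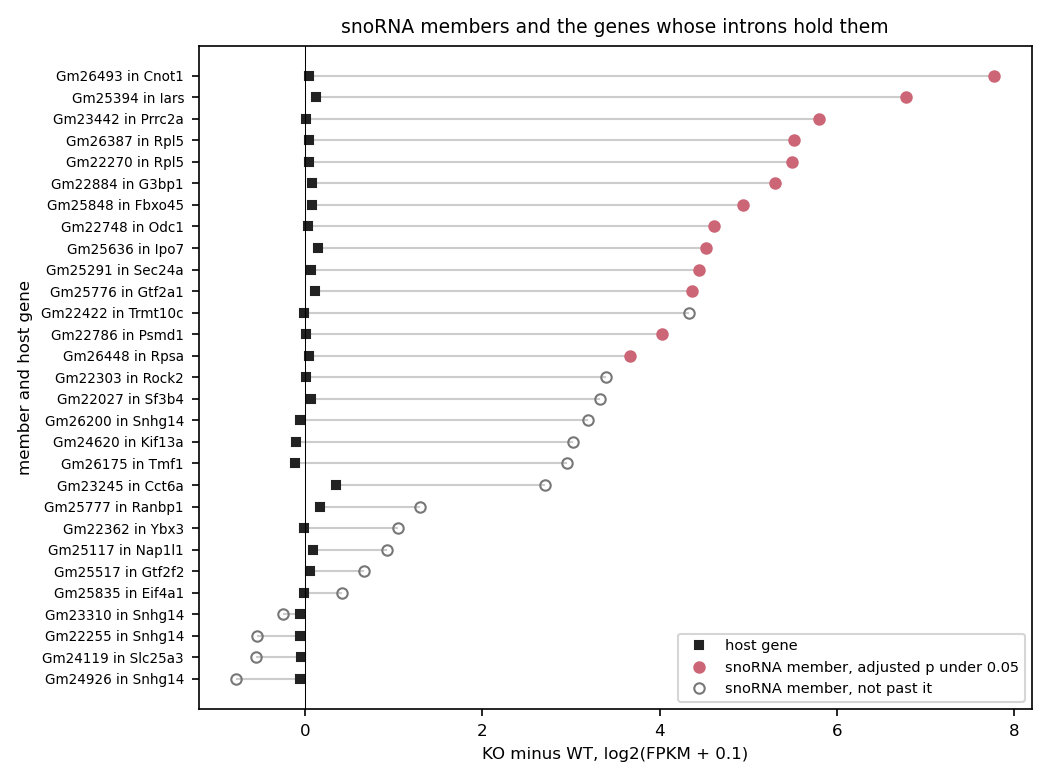
Difference between KO and WT in log2(FPKM + 0.1) (horizontal axis) of each tested intronic snoRNA member (circle, filled where called) and of the locus that carries the name of its host gene (square), 1 row a member. The squares stay between -0.12 and 0.35. The filled circles of Gm26493, Gm25394, Gm26387, Gm25848 and Gm25291 stand for members listed at 0 in all WT libraries, so their place depends on the 0.1 that was added.

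Most called snoRNA members ended in the letters of box ACA. The triplet ACA followed by exactly 3 bases closed the annotated transcript of 13 of 15 called snoRNA members, 9 of 19 that were tested but not called and 3 of 18 that were not tested. Of all 967 GENCODE snoRNA transcripts of 110 to 160 bases 24.3% had it, and of 528 snRNA, misc_RNA and rRNA transcripts of that length 1.33%. The called members without it were Gm22884 and the U3 copy Gm24949. A TGATGA in the first 25 bases together with a CTGA in the last 20, the letters of boxes C and D, occurred in 0 of 15 called, 5 of 19 tested but not called and 6 of 18 not tested members. Length also differed, with 122 to 215 bases among called members and 79 to 246 among all tested ones. A further near-identical pair was Gm25776 and Gm25848 (89.6% identity).

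Rows named for copies of spliceosomal and nucleolar RNAs gave the 3 smallest p-values among members. Their ranges were longer than the annotated genes, at 1016 against 191 bases for Gm23444, 1483 against 165 for Gm22614 and 2318 against 215 for Gm24949. Values of these rows thus need not come from the small RNA copies alone. The U2 copy Gm23444 had 0.0292, 0.0126, 0, 0.0487 and 0 FPKM in WT, 0.0556, 0 and 0.0223 in HET, and 3.03, 6.21 and 8.67 in KO at the lowest, median and highest. KO libraries lay far above all others, and the log2 difference was 5.63 (SE 0.23, limma-trend adjusted p = 9.1e-11). The locus is alone in its range.

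Gm25360, another U2 copy (chr1:72226240-72226430) and the only called member with a range under 400 bases, was already present in WT. It had 2.29, 0.39, 5.08, 11.1 and 5.31 FPKM in WT, 1.72, 2.88 and 6.45 in HET, and 15.7, 23.0 and 34.9 in KO at the lowest, median and highest. KO did not overlap with WT or HET, and the log2 difference was 2.85 (SE 0.68, limma-trend adjusted p = 0.0074). A further pair of U2 copies did not pass the test. Gm22973, with 9 differences from Rnu2-10 over 191 bases, had 0.356 FPKM on average in WT and 1.98 in KO (log2 2.77, SE 1.02, limma-trend adjusted p = 0.0665, but 0.0064 without WT4 and 0.0064 without KO3). Gm25939 had 4.39 and 8.34 (0.87, adjusted p = 0.349).

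The U1 copy Gm22614 (chr3:96488729-96488893) had 0.0998, 0.0643, 0.146, 0.0727 and 0.0109 FPKM in WT, 0.0477 to 0.0760 in HET, and 1.05, 1.35 and 1.53 in KO at the lowest, median and highest (log2 3.00, SE 0.20, limma-trend adjusted p = 9.7e-09). The U3 copy Gm24949 (chr11:96032678-96032892) had 0.0355, 0.0153, 0.0349, 0.0593 and 0.112 FPKM in WT, 0 to 0.0868 in HET, and 1.15, 2.07 and 2.79 in KO (3.81, SE 0.25, limma-trend adjusted p = 1.0e-08). Neither overlapped between KO and the other genotypes. A second row named Gm24949 with the same range did not pass the filter (0 FPKM in WT and 0.209 in KO on average). The files do not name the strand of either row.

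Gm22803 is typed misc_RNA and is 77.3% identical to the 7SK RNA Rn7sk where aligned, 7SK being a regulator of transcription elongation. Its first row (chr10:62918858-62920555) had 0.00798, 0.02, 0.117, 0.0647 and 0.00698 FPKM in WT, 0.0265 to 0.0627 in HET, and 0.803, 1.08 and 1.42 in KO, without overlap (log2 3.09, SE 0.22, limma-trend adjusted p = 2.3e-08). The second row of that name was higher by 2.04 with an adjusted p of 0.0404, which was above 0.05 when any 1 of WT1 to WT5, HET4, KO2, KO3, KO4 or KO6 was left out (up to 0.0969). Gm27901, also typed misc_RNA, had 2.43 FPKM in WT3 and 0.120 to 0.247 in the other WT libraries, and 1.45, 1.98 and 2.33 in KO. WT3 lay above the whole KO range (2.12, SE 0.47, limma-trend adjusted p = 0.0031).

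Members typed scaRNA and miRNA were also among those higher in KO. The scaRNA members guide the modification of snRNAs in Cajal bodies. Gm22767, in an intron of the phosphatase inhibitor gene Ppp1r8, had 0.127 to 0.437 FPKM in WT, 0.0852 to 0.364 in HET, and 0.559, 1.26 and 3.72 in KO, with KO above all others (log2 2.14, SE 0.38, limma-trend adjusted p = 4.4e-04). Gm25395, 92.9% identical to Scarna6 where aligned and in an intron of the autophagy gene Atg16l1, had 0.441 to 0.865 in WT and 0.805 to 4.20 in KO, so that KO3 lay within the WT range (1.68, SE 0.44, adjusted p = 0.0095, and 0.0507 after quantile normalization). The row of its host, which also carries the name Scarna6, rose too, by 0.25 log2 (limma-trend adjusted p = 0.0350). Among members typed miRNA, Gm23646 had 0 to 0.326 FPKM in WT, 1.25 to 1.38 in KO1, KO2, KO3, KO4 and KO6 and 4.83 in KO5 (3.31, SE 0.42, limma-trend adjusted p = 1.4e-05). Gm25927 had 1.28 in WT4, 0.148 to 0.233 in the other WT libraries and 1.66, 2.96 and 4.002 in KO (2.90, SE 0.37, limma-trend adjusted p = 1.6e-05). Both lay above every WT library in all KO libraries.

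Several longer members rose with little spread between libraries. Gm10822, a lincRNA of 7855 bases on the plus strand (chr2:73892996-73900850), is alone in its range and starts 357 bases upstream of the start of Atf2, a transcription factor gene on the other strand. It had 0.358, 0.286, 0.364, 0.294 and 0.313 FPKM in WT, 0.270, 0.305 and 0.285 in HET, and 1.34, 2.31 and 3.39 in KO at the lowest, median and highest. KO lay above all other libraries (log2 2.48, SE 0.18, limma-trend adjusted p = 2.0e-08). Gm26734, a lincRNA of 1737 bases (chr17:94834906-94836642), had 0.0708, 0.115, 0.117, 0.0355 and 0.0373 FPKM in WT, 0.0540 to 0.0846 in HET, and 0.632, 1.32 and 1.96 in KO, again without overlap (2.97, SE 0.25, limma-trend adjusted p = 1.2e-07).

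Members that GENCODE types as protein-coding rose as well. Gm10306 (chr4:94556546-94557078, 1 exon) starts 250 bases from the start of Caap1, a gene on the other strand. It had 0.155, 0.0133, 0.0374, 0.0128 and 0.0403 FPKM in WT, 0.0253 to 0.0476 in HET, and 0.982, 1.17 and 1.40 in KO (log2 3.12, SE 0.22, limma-trend adjusted p = 1.5e-08). Gm17509 (chr13:117218701-117221075, 1 exon) had 0.0490 to 0.114 in WT, 0.0683 to 0.106 in HET, and 0.464, 0.552 and 0.703 in KO (1.78, SE 0.18, limma-trend adjusted p = 8.8e-07). In both, KO lay above all other libraries. After quantile normalization the difference of Gm17509 was -0.056 (adjusted p = 0.889).

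Of the 14 called members outside the small RNA types, 7 start within 2 kb of the start of a protein-coding gene on the other strand. The same held for 2 of 26 that were tested and not called and for 21 of 91 that were not tested. The 7 were Gm10306 (Caap1), Gm10822 (Atf2), Gm10617 (Mphosph6), Gm10643 (Rfx1), Gm26694 (AC134908.4), Gm5447 (Exoc2) and Gm9959 (Map4k3), named here after their values were seen. After quantile normalization, the limma-trend adjusted p was 0.451 for Gm10617, 0.699 for Gm26694, 0.0567 for Gm5447 and 0.105 for Gm9959, so 4 of the 7 calls were lost in that fit. The distance was 111 bases for Gm5447 and 119 bases for Gm10617. Mphosph6, which encodes an exosome cofactor, had a log2 difference of -0.01 (limma-trend adjusted p = 0.930).

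**Figure D5:**
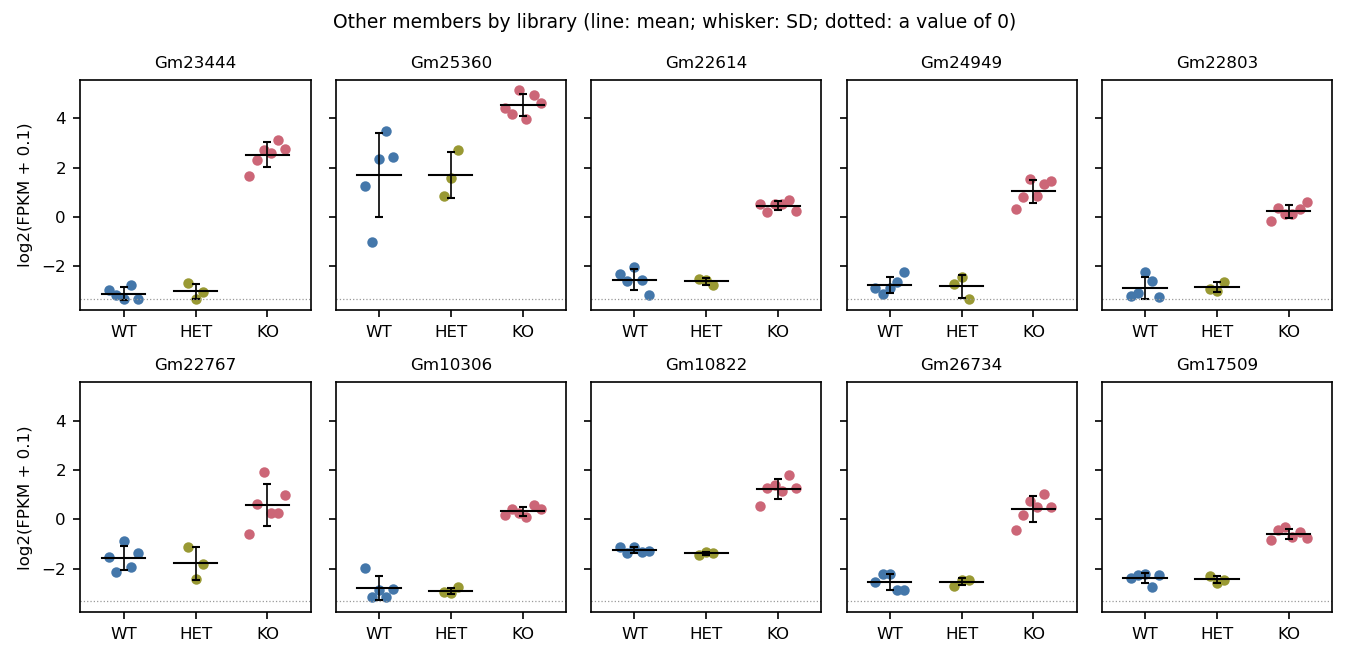
Log2(FPKM + 0.1) (vertical axis) of 10 members outside the intronic snoRNAs in each WT, HET and KO library (points), with the mean and SD of each genotype and the value of 0 FPKM as a dotted line. In these 10 members, picked from the called ones, the KO points lie above the WT and HET points. Called members with overlap, such as Gm27901 and Gm25395, are not shown. Of the 30 called members of types other than snoRNA, 22 had every KO library above every WT library.

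Of the 3 most abundant members in each range length class, Gm22270 and Gm25360 rose and the other 4 did not pass the test. Gm24270, typed miRNA and in an intron of the kinase gene Peak1, had 46.6, 92.9, 181, 139 and 173 FPKM in WT, 31.6, 48.6 and 37.9 in HET, and 19.6, 84.5 and 187 in KO at the lowest, median and highest. KO spanned the whole WT range (log2 -0.59, SE 0.56, limma-trend adjusted p = 0.510). Gm25777, a snoRNA member in an intron of Ranbp1, had 0 to 86.3 FPKM in WT and 7.08 to 109 in KO (1.30, SE 1.61, adjusted p = 0.628). The row of Ranbp1, which also carries Dgcr8, was higher by 0.17 log2 (limma-trend adjusted p = 0.0099). The snRNA-typed Gm24265 had 3.07 to 20.9 in WT and 2.72 to 22.4 in KO (0.16, SE 0.60, adjusted p = 0.887). Gm25541, also snRNA-typed, had 0 to 27.1 in WT and 0 to 53.8 in KO (1.72, SE 2.09, adjusted p = 0.623). Both processed pseudogenes with the smallest p overlapped between genotypes, Gm6030 with 0.934 FPKM in WT and 0.577 in KO on average (limma-trend adjusted p = 0.164) and Gm10268 with 0.294 and 0.498 (0.426).

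In HET heads no member was called against WT. Of 118 tested, 0 passed a limma-trend adjusted p under 0.05 (0.00549% of all loci higher, 0 lower), and 4 had an unadjusted p under 0.05 (1.94% of all loci), 1 of them higher. Each alternative fit also gave 0. Zcchc8 was not called in this comparison either, though every HET library lay below every WT library (log2 -0.62). The count of 0 therefore does not show that no member differed. The smallest unadjusted p was that of Gm25117, a snoRNA member in an intron of the histone chaperone gene Nap1l1, with 20.2, 6.14, 31.4, 23.3 and 28.1 FPKM in WT and 9.03, 11.2 and 6.24 in HET (log2 -1.15, limma-trend unadjusted p = 0.0211, adjusted p = 1). WT2 lay below all HET libraries. The others were the scaRNA member Gm22009 (-0.72, 0.0373), Gm24270 (-1.55, 0.0408) and Gm22973 (2.68, 0.0484). The fifth smallest was that of Gm24265 (1.44, 0.0706).

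Against HET heads, which have 3 libraries, 38 members were higher and 0 lower in KO (17.9% and 4.36% of all tested loci), with a median log2 difference of 1.14. These values share the KO libraries with the comparison against WT. The log2 difference of KO from HET was 5.54 for Gm23444 (limma-trend adjusted p = 1.0e-09), 3.86 for Gm24949, 4.16 for Gm22786, 2.6 for Gm10822 and 3.23 for Gm10306. By snoRNA type 8 of 34 were higher. Gm22009 was higher than in HET by 1.21 (limma-trend adjusted p = 0.0086) and Gm25117 by 2.07 (0.0024), and neither was called against WT (0.49, adjusted p = 0.203, and 0.92, adjusted p = 0.0872). The adjusted p of Gm22009 against WT was 0.0061 without KO1.

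At the edge of the membership rule, the third highest FPKM was 0.101 for Gm26785, 0.101 for Gm22018 and 0.105 for Gm26745, which are members. It was 0.0944 for Gm24011, 0.0971 for Gm24893 and 0.0982 for Gm26603, which are not. The profile most like that of Gm23444 over the 14 libraries, as Pearson's r of log2(FPKM + 0.1), was that of the locus Hist2h2aa1,RP24-201C14.6 (r = 0.998), which holds a histone H2A gene. For Gm22614 it was RP23-45G4.2 (r = 0.994). Both loci were also higher in KO on average, at 0.236 FPKM in WT and 2.84 in KO for the histone locus and 1.49 and 7.02 for RP23-45G4.2, and likeness within a genotype was not computed.

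Other unnamed or provisionally named loci were called at like or higher shares. In KO against WT, 26 of 38 tested Gm-numbered loci of NCBI type ncRNA were higher, 823 of 1787 clone-named loci (46.1%) and 1316 of 2004 unnamed loci (65.7%). Of single-name box H/ACA snoRNA and scaRNA loci 3 of 14 were higher. The difference between these shares and that of the members was not tested.

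Genes of the exosome and its adaptors served as a check of the wider pathway. Of 25 tested, Zcchc8 was lower and Srrt, which encodes the cap-binding partner ARS2, was higher (115.7 ± 9.26 FPKM in WT, SD, n = 5, and 142.9 ± 9.05 in KO, SD, n = 6, with log2 0.31, limma-trend adjusted p = 0.0013). The other 23 did not pass, and the median log2 difference of the list was -0.01. Rbm7 had -0.01 (adjusted p = 0.919) and Skiv2l2 0.03 (0.768). Among markers of head tissues, 3 of 4 lens and 3 of 4 surface epithelium genes were lower in KO, 2 of 5 head mesenchyme genes and 1 of 4 cartilage genes. Higher were 1 erythroid and 1 neural progenitor gene. None of 5 neuron, 4 endothelial, 4 myeloid, 5 forebrain and midbrain, 4 pigment cell or 4 skeletal muscle genes passed. The median log2 difference of the muscle genes was -0.83. Over all tested loci, 19.0% were higher and 5.61% lower. Summed lens markers ran from 80.0 to 110.3 FPKM in WT and from 23.5 to 112.8 in KO, and summed neuron markers from 477.7 to 569.6 and from 421.1 to 573.7. Of the lists for tissues outside the head, trunk Hox genes were at or below 0.0229 FPKM in every genotype mean. Of 4 liver genes 1 was tested, the apolipoprotein gene Apoa1, and it was higher in KO (0.268 FPKM in WT and 1.22 in KO on average, log2 1.83, limma-trend adjusted p = 2.0e-06). In whole heads, fewer cells of a type and less RNA per cell cannot be told apart, and the part of these shifts in the results above was not tested.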

How the data were processed

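Polyadenylated RNA of 14 libraries of E12.5 heads was analysed. Per the submitters' processing notes, the build was mm10 and the tools included TopHat2 2.1.0, Cuffdiff and Partek, with bcl2fastq and FastQC 0.10.0. No source used here gives the strand setting or the gene models. The authors deposited FPKM values per locus and library, and a matrix of log2 FPKM values from the authors, blank at 0, that was used as an alternative and for NCBI types. No counts are held, so total depth is unknown, and the number of libraries limits precision. Values were analysed as log2(FPKM + 0.1), which understates changes of rows with values near 0.1. For rows that go from 0 to several FPKM, the size of the difference depends on the value added. Gm26493 differed between KO and WT by 7.77 log2 with 0.1 added and by 4.52 with 1 added. Loci with at least 0.5 FPKM in at least 3 libraries (18217) were tested with limma-trend (limma 3.58.1, R 4.3.3, robust) in 1 fit with a mean per genotype, and p-values were adjusted by Benjamini-Hochberg over all of them. The fit was also run on simulated data with normal noise, which do not cover rows with many values of 0. Types, positions and transcript sequences came from GENCODE M21 of the same build, and relatives from blastn 2.17.0 (e-value 1e-05). Scripts ran on Python 3.11.15 with pandas 2.3.3, numpy 2.4.6 and scipy 1.17.1, and figures on matplotlib 3.10.9. The members and lists were chosen with earlier results of these data known. Named loci are, among called members with a mean of at least 1 FPKM in the higher group, the 10 largest rises in each range length class and the largest falls (0 were found), then the 3 most abundant members of each class, the 2 smallest p in each gene type with at least 5 tested, the 5 smallest p in HET against WT and the loci at the edge of the rule. The alternatives were pseudocounts, filters, scalings, the replicate block, fits of the compared groups alone, library weights, sex (from Xist and genes on the Y), and leaving out each library. Fits without KO1 and KO3 and the split by annotated length were chosen after seeing the data.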

Additional observations from a re-analysis of the deposited data

Results flagged for a closer look

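In 12 of 62 groups of libraries compared (WT or KO, for each locus named above), 1 library stood apart from the rest of its genotype by a wide gap. Chance flags about 1 in 20 such groups where values are normally distributed, and with many libraries listed at 0 that rate need not hold. High WT libraries were WT1 for Gm10306 (0.155 FPKM, next 0.0403) and Gm24265 (20.9, next 7.21), WT2 for Gm22786 (0.103, next 0.0583), Gm22884 (2.58, the others listed at 0) and Gm23646 (0.326, next 0.0754), WT3 for Gm27901 (2.43, next 0.247), and WT4 for Gm22973 (1.78, the others listed at 0), Gm23442 (14.4, the others listed at 0) and Gm25927 (1.28, next 0.233). KO5 stood high for Gm22884 (72.9 FPKM, next 15.1) and Gm23646 (4.83, next 1.38). KO1 stood low for Gm25848 (0 FPKM, next 4.61).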

How the results depend on the processing

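The count of 45 members higher in KO than in WT was 30 to 69 over the alternatives run, and 39 of the 45 kept their call when each library was left out in turn, 32 of the 34 testable in the authors' matrix, 30 after quantile normalization, 44 with a pseudocount of 1 and 42 with sex as a covariate. Leaving out a library gave 41 to 47 higher and 0 to 1 lower against WT, and 31 to 42 higher and 0 to 1 lower against HET. With a filter of 0.1 FPKM, 69 were higher against WT, 63 against HET, 68 of the longer ranges and 15 of the lincRNAs, and with no filter 15 lincRNAs. Quantile normalization gave 23 lower against WT, 17 lower against HET, 29 higher among longer ranges and 3 higher lincRNAs, and none of the 23 had been called higher as deposited. The authors' matrix gave 2 lower against WT, 1 lower against HET, 7 higher snoRNAs and 15 called exosome and adaptor genes, where the median locus moved by 0.20 log2 in KO. Library weights gave 1 lower against WT, 1 lower against HET and 2 higher short ranges. Without KO1 and KO3, 2 short ranges were higher, and leaving out 1 library gave 1 to 2 short ranges and 2 to 4 exosome genes. The causes were not tested. Same-numbered libraries did not deviate together (correlations from -0.11 to 0.10), so the numbers were not taken as pairs. With the replicate block 39 were higher and 0 lower against WT, where Gm22270 (adjusted p 0.138), Gm23442 (0.0637), Gm25395 (0.0555), Gm25776 (0.150), Gm23833 (0.0776) and the second row of Gm22803 (0.135) were not called, and 34 higher and 1 lower against HET. Signs turned for Gm10268 (-0.88) and Gm17509 (-0.056) after quantile normalization, for Gm25777 in the authors' matrix (-0.28) and without WT5 (range -0.45 to 1.98 over left-out libraries), and for Gm24265 with sex (-0.070) and without WT4 or KO5 (range -0.15 to 0.56). Depth is unknown, so values of 0 cannot be given a limit.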
